A study of Bos taurus with 11 samples.

Results

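Interferon-stimulated genes are the genes that cells switch on when interferon, a signalling protein released during infection, binds its receptor. A list of 41 of them was followed here in peripheral blood mononuclear cells (PBMC, the lymphocytes and monocytes of blood) of cattle. Members were taken by the gene name that the array design gives its probes, and 38 of the 41 have at least 1 probe under that name, out of 24839 distinct names on the array. They are represented by 76 of 43653 probes, 11 of them by 1 probe and 27 by at least 2. IFI44, IFI44L and GBP2 have no probe under those names and are not measured under them.

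Type I interferons bind the receptor chains IFNAR1 and IFNAR2, the kinases JAK1 and TYK2 then pass the signal on by phosphorylation, and a complex that contains STAT2 and IRF9 binds the promoters of interferon-stimulated genes. The products include sensors of viral RNA (DDX58 and IFIH1), effectors that block viral replication (the MX, OAS and IFIT proteins, RSAD2, EIF2AK2), the ubiquitin-like modifier ISG15 with the enzymes that attach and remove it (UBA7, HERC5 and HERC6, USP18), and regulators that feed back on the pathway (IRF7, STAT2). In blood, their joint level is widely read as a sign of recent exposure to interferon.

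The study compared 5 female Ladakhi cattle, a native breed of the Ladakh region kept at high altitude, with 6 female Sahiwal cattle, a zebu breed from low altitude in arid and semi-arid country. Each animal gave 1 array, hybridised with Cy3-labelled RNA and read as 1 colour. The Sahiwal samples are labelled as basal, and no treatment, age or blood-sampling detail is given in the labels. Levels below are log2 of the processed spot signal minus the array's own reference, the 75th percentile of the 2578 probes that were well above background on all 11 arrays, so a level of 0 equals that reference and a difference of 1 is a doubling. They compare arrays for 1 probe, not genes with each other. Fewer cells of a type and less RNA per cell cannot be told apart in such bulk samples.

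The arrays of the breeds differed in brightness and in hardware. Between 17517 and 20574 of 43803 spots were well above background on the Sahiwal arrays, and 4243 to 6608 on the Ladakhi arrays. The lowest level that could be detected averaged -8.10 in Sahiwal and -3.50 in Ladakhi, and 27 of the 38 members had a Sahiwal mean below the Ladakhi limit. An Axon GenePix instrument scanned the Sahiwal slides and an Agilent instrument the Ladakhi slides. None of the 4 slides carries both breeds, and altitude and the version of the extraction software differ with breed too. Breed, altitude, scanner, software version and slide therefore cannot be told apart. Among cell-type markers, all 7 T cell and all 8 monocyte markers were well above background on every Sahiwal array, against 3 to 6 of each list on the Ladakhi arrays. The arrays of Sahiwal animals 4 and 6 stood apart: all 9 granulocyte markers were well above background there, against 4 or 5 on the other Sahiwal arrays and 2 to 4 on the Ladakhi arrays. Results that rest on these animals are therefore given with and without them.

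The following 60-base probe sequences are printed 5′ to 3′ as the array design gives them, for 4 members whose levels differed widely between Sahiwal animals. The ISG15, IFIT2 and ISG20 levels below are readings of these stretches. For IFIT3 the levels come from a brighter probe, and the sequence shown is that of its other probe, whose signals are given beside them. Capitals mark the 28 bases that the ISG15 probes have in common, so their agreement is partly agreement of 1 sequence with itself.
ISG15 probe 1: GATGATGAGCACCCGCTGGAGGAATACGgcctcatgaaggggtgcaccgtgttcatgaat
ISG15 probe 2: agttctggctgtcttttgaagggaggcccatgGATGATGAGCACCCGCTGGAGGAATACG
IFIT2: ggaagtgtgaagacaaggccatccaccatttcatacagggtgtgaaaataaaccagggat
IFIT3 probe 2: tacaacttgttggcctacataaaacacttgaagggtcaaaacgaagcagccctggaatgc
ISG20: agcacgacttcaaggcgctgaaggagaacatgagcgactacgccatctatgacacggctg

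On the build HGSC Btau_3.1 that the files name, the ISG15 probes lie on the minus strand at chr16:48718882-48718941 and chr16:48718914-48718973. The IFIT2 probe lies on the plus strand at chr26:11431248-11431307, IFIT3 probe 2 on the plus strand at chr26:11448802-11448861, and the ISG20 probe on the plus strand at chr21:19250384-19250443. Exon and UTR annotation of that build was not used here. Several members lie side by side. The IFIT1, IFIT2, IFIT3 and IFIT5 probes span 57.3 kb of chromosome 26, the OAS1X, OAS1Y, OAS1Z and OAS2 probes 58.2 kb of chromosome 17, the MX1 and MX2 probes 48.8 kb of chromosome 1, and the PARP9, DTX3L and PARP14 probes 100.2 kb of the same chromosome.

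Detection differed strongly between the breeds, for the members as for all genes. On at least 4 arrays of the breed, 30 of 38 members (78.9%) had a probe well above background in Sahiwal, against 44.9% of all genes on the array. In Ladakhi the count was 7 of 38 (18.4%), against 12.5% of all genes. Counting any array, 37 members (97.4%) were seen in Sahiwal, against 56.7% of all genes, and 16 (42.1%) in Ladakhi, against 26.0%. CMPK2, a mitochondrial nucleotide kinase gene next to RSAD2, was the 1 member not well above background on any Sahiwal array. Ladakhi animals 1 to 5 had 9, 7, 13, 7 and 15 members well above background, and Sahiwal animals 1 to 6 had 31, 28, 29, 34, 35 and 35. The Ladakhi counts were highest on the arrays of animals 3 and 5, which also had the most spots well above background of that breed.

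**Figure D1:**
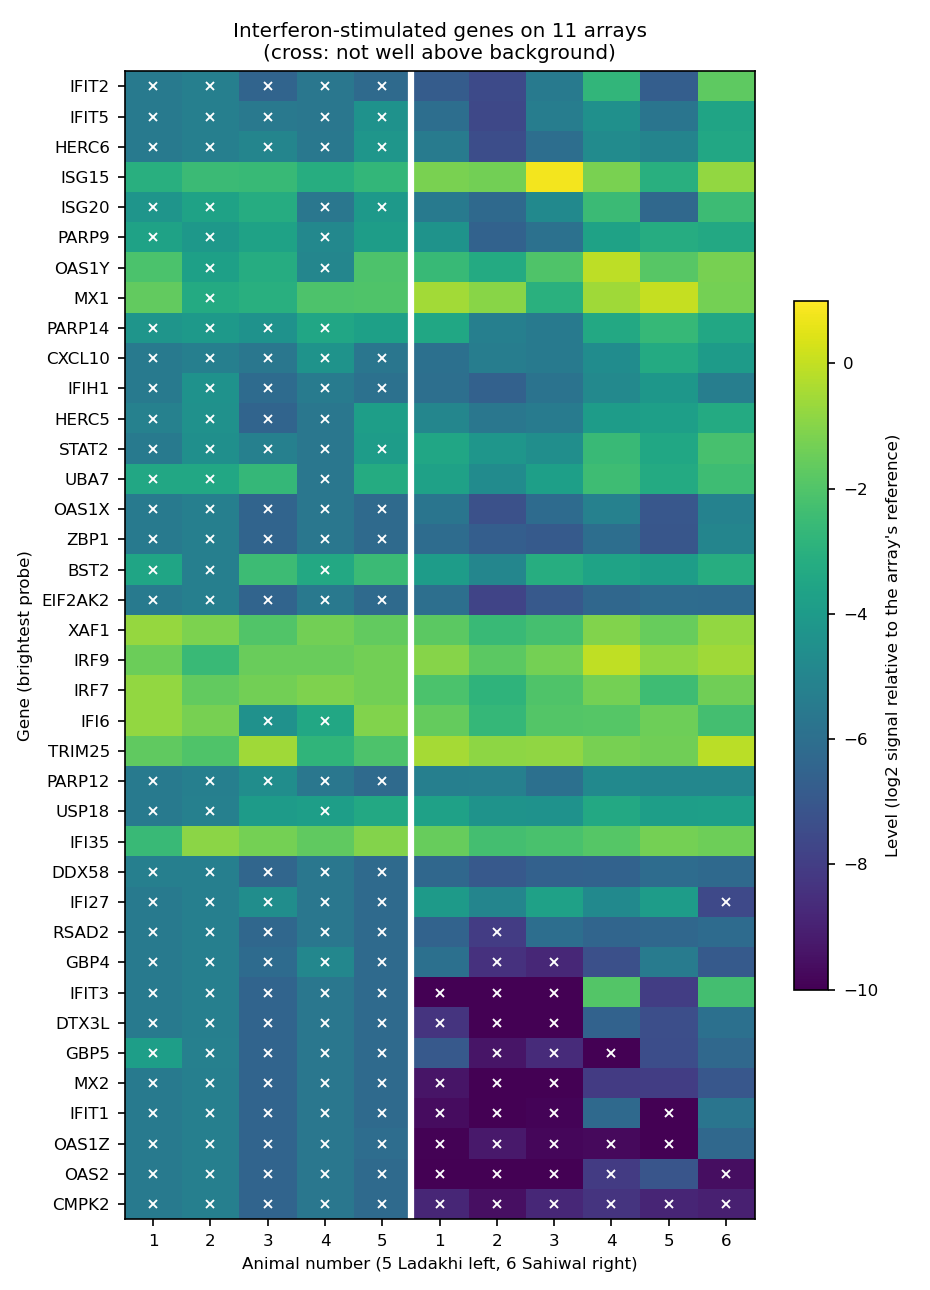
Level of the brightest probe of each of the 38 members (rows) on the 5 Ladakhi and 6 Sahiwal arrays (columns), on a log2 colour scale relative to each array's reference, with a cross where the probe was not well above background. Colours compare arrays within a row: 27 members were above background on all 6 Sahiwal arrays, and IFIT2, IFIT3 and ISG20 were brightest in Sahiwal animals 4 and 6.

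Within Sahiwal the animals did not carry the members at the same level. For the 27 members well above background on all 6 arrays, the deviation of each animal from the member's Sahiwal mean was taken, and its median over members was -0.10, -0.88, -0.39, 0.58, 0.12 and 0.64 in animals 1 to 6. Animal 6 was thus highest and animal 2 lowest, 1.53 apart on the log2 scale. The same median over 9687 other genes was 0.09, -0.16, -0.19, -0.01, 0.20 and 0.04, which is a median over genes that go both ways on arrays each scaled to its own reference. In animal 6, 25 of the 27 members lay above their own mean, in animal 4, 23, and in animal 2, 1. Animal 2 held the lowest level of 17 members, and animals 6, 5 and 4 the highest of 11, 8 and 6. Of the other genes, 23.7% were lowest in animal 2 and 16.2% highest in animal 6. These are descriptions of 6 animals, with no test.

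**Figure D2:**
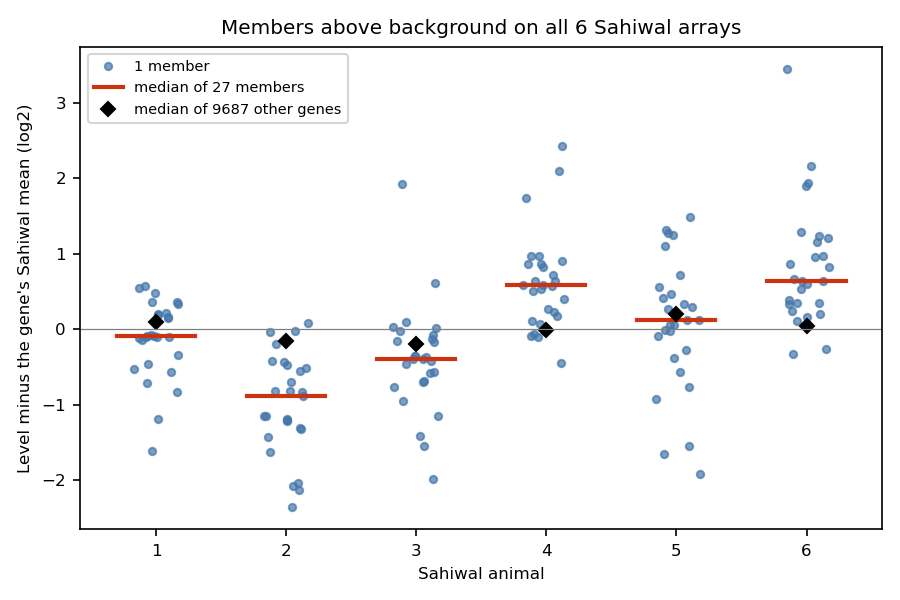
Level minus the gene's Sahiwal mean (log2) in each of the 6 Sahiwal animals: 1 point per member for the 27 members above background on all 6 arrays, a bar at their median and a diamond at the median of 9687 other genes. The members' medians run from -0.88 in animal 2 to 0.64 in animal 6, while the diamonds stay between -0.19 and 0.20.

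The members also spread more widely between Sahiwal animals than other genes did. The range from the lowest to the highest animal had a median of 2.28 over the 27 members, or 4.85-fold, against 1.24, or 2.36-fold, over the other genes. It passed 3 on the log2 scale in 8 members (29.6%) and in 3.58% of other genes. By brightest probe, the narrowest range was that of DDX58, the RNA sensor RIG-I, at 0.82. Its other probes were dimmer and spread more widely. They ran from -9.61 to -6.22 (on 5 Sahiwal arrays) and from -10.12 to -6.50 (on 4). Both were lowest in animal 2, where they were not well above background, and highest in animal 6. Animals 4 and 6 together held the highest pair of levels in 12 of the 27 members (44.4%), and in 12.2% of the other genes. The pair was picked after the members' levels were seen, so an excess among members follows in part from that choice.

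The IFIT genes, whose products bind foreign RNA and block its translation, were the family with the clearest separation of animals 4 and 6. IFIT2 stood at -6.79, -7.53, -5.53, -2.74, -6.73 and -1.72 in animals 1 to 6. Its highest level, in animal 6, was 56.2-fold above its lowest, in animal 2. IFIT3 was well above background in animals 4, 5 and 6 alone, at -1.95, -8.00 and -2.27, and in the other Sahiwal its signal was that of background. Its processed signals in animals 1 to 6 were 9.9, 11.3, 5.7, 2328.9, 34.2 and 1984.9 intensity units. The other IFIT3 probe, printed above, gave 8.4, 11.3, 5.7, 467.1, 5.6 and 528.6 units, so both probes of the gene singled out the same pair of animals. IFIT1 was well above background in animals 4 and 6 alone, at -6.23 and -5.72. IFIT5 followed with less contrast, at -6.03, -7.60, -5.36, -4.49, -5.73 and -3.56, a range of 4.04.

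ISG20, a 3′ exonuclease that degrades viral RNA, had the same shape. Its levels in animals 1 to 6 were -5.45, -6.24, -4.77, -2.52, -6.27 and -2.45, a 14.1-fold range. A second ISG20 probe, on the same chromosome at chr21:19251877-19251936, read -6.64, -5.87, -5.60, -2.97, -7.21 and -2.87. Both put animals 4 and 6 above the other Sahiwal without overlap.

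The OAS genes encode enzymes that make short oligoadenylates and thereby activate the RNA-cutting enzyme RNase L, and cattle have several OAS1 copies. OAS1Y was measured on all Sahiwal arrays at -2.57, -3.28, -2.02, -0.11, -1.86 and -1.26, highest in animal 4 and lowest in animal 2. OAS1X, at -5.71, -7.29, -6.14, -5.16, -6.99 and -5.12, was highest in animals 6 and 4 and lowest in animal 2. OAS1Z and OAS2 were each well above background on 1 Sahiwal array, OAS1Z in animal 6 at -6.28 and OAS2 in animal 5 at -7.11. The OAS1Z probe that gave this reading is placed at chr17:64590651-64590710, beside the OAS1X probe at chr17:64590856-64590915, while the other OAS1Z probe lies at chr17:64606830-64606889 and was not above background anywhere. The near-identical OAS1 copies can share signal, and which copy this probe reads is uncertain.

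HERC6 and HERC5, ubiquitin ligases of which HERC5 attaches ISG15 in humans, were also highest in animal 6 and lowest in animal 2. HERC6 read -5.44, -7.41, -6.03, -4.69, -5.04 and -3.40, a 16.2-fold range. HERC5 read -4.95, -5.65, -5.45, -3.91, -3.78 and -3.26. These genes are neighbours on chromosome 6, and a further HERC6 probe matches 36 of 45 overlapping bases of the HERC5 probe. UBA7, the enzyme that activates ISG15, was highest in animals 4 and 6, both at -2.41, and lowest in animal 2, at -4.68. USP18, which removes ISG15 from its targets, varied little, from -4.38 to -3.38.

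Animal 5 held the highest level of 8 of the 27 members, a share close to the 32.3% of other genes that were highest there. PARP9, whose product works with the ubiquitin ligase DTX3L, read -4.34, -6.54, -5.91, -3.68, -3.18 and -3.35, a 10.2-fold range with animals 4, 5 and 6 close together. PARP14, its neighbour, read -3.45, -5.25, -5.48, -3.36, -2.65 and -3.40, and animals 2 and 3 lay below the rest. DTX3L, between them, had its highest level in animal 6 and was well above background in animals 4, 5 and 6 alone, at -6.53, -7.37 and -5.93. CXCL10, a chemokine that draws activated T cells, read -5.96, -5.32, -5.46, -4.67, -3.29 and -3.95, so that animals 4, 5 and 6 were its 3 highest. IFIH1, the long-RNA sensor MDA5, ran from -6.60 in animal 2 to -4.19 in animal 5. MX1, a GTPase that traps viral nucleocapsids, read -0.51, -0.97, -3.04, -0.55, 0.05 and -1.31, and animal 3 alone was far below the others. MX2, highest in animal 6, was seen in animals 4, 5 and 6 alone, at -8.08, -8.01 and -6.99.

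ISG15 had another order of animals. Its levels in animals 1 to 6 were -1.23, -1.33, 0.79, -1.20, -3.05 and -0.78, a 14.3-fold range. The highest was animal 3 and the lowest animal 5, the animal in which PARP9, PARP14, CXCL10 and MX1 were highest. The second ISG15 probe gave -1.25, -1.10, 0.50, -1.21, -3.30 and -0.73, with the same extremes. IFI27, a mitochondrial protein gene often used in interferon scores, had a further order, lowest in animal 6. It read -4.02, -4.98, -3.70, -4.77 and -3.91 in animals 1 to 5 and was not well above background in animal 6, at -7.55. The members thus did not follow 1 order of animals.

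**Figure D3:**
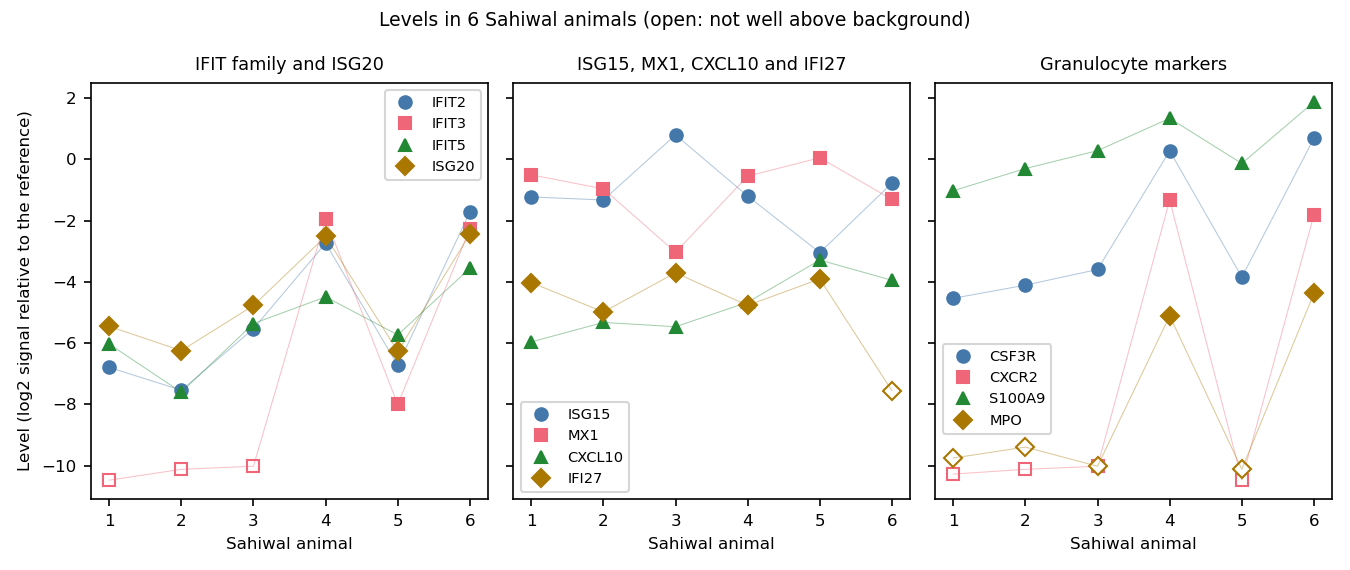
Levels (log2 relative to the array's reference) of 4 members with the IFIT pattern (left), of ISG15, MX1, CXCL10 and IFI27 (middle) and of 4 granulocyte markers (right) in the 6 Sahiwal animals, with open symbols where the probe was not well above background. IFIT2, IFIT3, IFIT5 and ISG20 peak in animals 4 and 6 as these 4 granulocyte markers do, whereas ISG15 peaks in animal 3 at 0.79.

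The granulocyte markers, apart from LTF, moved with the IFIT pattern. LTF was highest in animal 3, at -5.10, and read -6.35 and -6.41 in animals 4 and 6. The log2 of the summed signal of the 9 markers was 3.88 in animal 4 and 4.26 in animal 6, 2.07 to 3.29 in the other Sahiwal and 0.999 to 2.44 in Ladakhi. CXCR2, the chemokine receptor of neutrophils, stood at -1.33 and -1.81 in animals 4 and 6 and was not above background in the other Sahiwal, at -10.46 to -10.01. CXCR1, MPO and CATHL1 were likewise well above background in animals 4 and 6 alone of the Sahiwal. CSF3R, the receptor of granulocyte colony-stimulating factor, read 0.27 and 0.69 there and -4.54 to -3.60 in the other Sahiwal. The summed monocyte markers were also highest in animal 6, at 3.93, and next in animal 4, at 3.53, against 2.51 to 3.37 elsewhere in the breed. The cytotoxic and NK markers were lowest in animal 4, at -1.10, against 0.35 to 1.13 in the other 5 Sahiwal. The part of these cells in the members' levels was not tested.

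Without animals 4 and 6 the spread among the members was smaller but present. Among animals 1, 2, 3 and 5 the members' medians were 0.23, -0.56, -0.10 and 0.48 about the mean of those animals, 1.04 from lowest to highest. Animal 2 was the lowest of these 4 in 17 of 27 members, or in 32.6% of other genes, and animal 5 the highest in 16 of 27, or in 46.2% of other genes. The median range over the 27 members was 1.497, against 0.98 over other genes. It passed 3 in 3 members rather than 8, and in 157 of the 9687 other genes. IFIT2 then ranged over 2.01 in place of 5.81, ISG20 over 1.497 in place of 3.82 and OAS1Y over 1.42 in place of 3.17. The ranges of ISG15, PARP9 and MX1 were untouched, at 3.84, 3.36 and 3.08, because their extremes lay in other animals. By slide, the 2 arrays of the first Sahiwal slide, animals 1 and 2, differed by 0.79 in the members' median, and the 4 arrays of the other slide, animals 3 to 6, by 1.03.

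The regulators and the remaining members varied less. STAT2, which binds IRF9 in the interferon complex, read -3.50, -4.23, -4.56, -2.54, -3.43 and -2.20 in the Sahiwal, highest in animals 6 and 4. IRF9, its partner, read -1.01, -1.77, -1.29, -0.07, -0.87 and -0.58 and had the same pair at the top. IRF7, the factor that amplifies type I interferon production, read -2.13, -2.84, -2.04, -1.30, -2.40 and -1.37, and XAF1, a pro-apoptotic gene, -1.76, -2.54, -2.25, -1.08, -1.54 and -0.80. In all 4 the animals 4 and 6 lay above the other Sahiwal, without overlap, and animal 2 or 3 was lowest. ZBP1, a nucleic-acid sensor, ranged over 2.06, the tetherin gene BST2 over 1.84, the kinase gene EIF2AK2 (PKR) over 1.78, IFI6 over 1.26, the ubiquitin ligase gene TRIM25 over 1.23, PARP12 over 1.17 and IFI35 over 0.97. RSAD2 (viperin) was between -6.48 and -6.04 in 5 Sahiwal and not well above background in animal 2, at -8.03. The guanylate-binding protein genes GBP4 and GBP5 were well above background on 4 and 3 Sahiwal arrays.

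Probes of 1 gene often shared their highest or their lowest animal, and the full order of animals was not compared. Of 13 members with at least 2 probes on all 6 Sahiwal arrays, 9 had the same highest animal and 10 the same lowest. The pairs are not independent where they overlap in sequence, by 28 bases for ISG15 and 54 bases for IRF7.

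In Ladakhi few members could be followed between animals. The 6 members well above background on all 5 arrays were ISG15, IFI35, XAF1, IRF7, IRF9 and TRIM25. The median of their deviations was 0.18, 0.00, 0.17, -0.07 and -0.01 in animals 1 to 5, a difference of 0.25 between the highest and the lowest animal. Over the same 6 members the Sahiwal difference was 1.16. By single member, 4 of the 6 ranged more widely over the 6 Sahiwal than over the 5 Ladakhi animals, ISG15 by 3.84 against 0.65. TRIM25 and IFI35 ranged more widely in Ladakhi, by 2.22 against 1.23 and by 1.66 against 0.97. The Ladakhi difference of 0.25 became 0.69 on a scale set by all probes, 0.54 when the probes of each gene were averaged, and 0.47 without animal 3. No IFIT gene was well above background on any Ladakhi array, and ISG20 was on 1. An IFIT2 or IFIT3 level such as that of Sahiwal animals 4 and 6 would have lain above the Ladakhi detection limits, -4.15 to -2.94 by array, while the levels of the other Sahiwal would have lain below them.

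Ladakhi and Sahiwal were compared with limma, a linear model fitted across all tested probes with shrunken variances, at an adjusted p of 0.05 (Benjamini-Hochberg). The adjustment ran over the 17865 probes that 4 or more arrays of 1 breed or the other detected well above background. Of 30 members tested, 5 were called, against 42.1% of all tested probes, and for 2 of these, STAT2 and GBP4, the Ladakhi side was background. A member counts as measured where both breeds met the filter, which left 7 of 38: ISG15, MX1, TRIM25, IRF9, IRF7, IFI35 and XAF1. Of these, 3 were lower in Ladakhi and 0 higher, while 4 did not pass the test. Over all 4034 measured probes 33% were called, 15.1% lower and 17.9% higher, and with 7 members the count of 3 is close to that share. The median difference of the 7 was -0.74, against -0.03 over all measured probes. None of the 7 separated the breeds without overlap, which 21.5% of measured probes did. All 7 passed the filter, and the other 31 members with a probe are not represented in these counts.

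ISG15 gave the largest difference of the 7. Its Ladakhi levels were -3.07, -2.52, -2.58, -3.16 and -2.73, against a Sahiwal low of -3.05, median of -1.22 and high of 0.79. Only Sahiwal animal 5 fell within the Ladakhi range. Ladakhi averaged -2.81 ± 0.29 (SD, n = 5) and Sahiwal -1.13 ± 1.23 (SD, n = 6), a difference of -1.68 (SE 0.50, limma adjusted p = 0.0153), or 3.20-fold lower. The other ISG15 probe, above background on 2 Ladakhi arrays, differed by -3.35 (SE 0.67). The call held with each array left out in turn (adjusted p = 0.00199 to 0.0350). It ended without Sahiwal animals 4 and 6 together, at -1.61 (adjusted p = 0.0514), with quantile normalization (adjusted p = 0.0735) and with cyclic loess (adjusted p = 0.128).

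MX1 was lower in Ladakhi by a smaller margin and with more overlap. Ladakhi animals 1 to 5 read -1.65, -3.28, -3.06, -2.07 and -2.04, animal 2 not well above background, and the Sahiwal ran from -3.04 in animal 3 to 0.05 in animal 5. Ladakhi averaged -2.42 ± 0.71 (SD, n = 5) and Sahiwal -1.05 ± 1.07 (SD, n = 6), and the difference was -1.36 (SE 0.50, limma adjusted p = 0.0390). Leaving out any of Ladakhi animals 2 and 3 or Sahiwal animals 1, 2, 4, 5 and 6 ended the call, at adjusted p values of 0.0503 to 0.0997. Another MX1 probe on all 6 Sahiwal arrays was not above background in Ladakhi. The mean over the 3 MX1 probes turned the sign, to 0.28 (limma adjusted p = 0.628), and background values of both breeds enter that mean. The dimmest of these probes was above background on 1 Sahiwal array and no Ladakhi array, with means of -9.27 in Sahiwal and -5.81 in Ladakhi.

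TRIM25, a ubiquitin ligase that activates RIG-I, was the third lower member. Its Ladakhi levels were -1.68, -2.04, -0.59, -2.80 and -2.08, and the Sahiwal levels -0.50, -0.85, -0.81, -1.27, -1.39 and -0.16, with Ladakhi animal 3 inside the Sahiwal range. Ladakhi averaged -1.84 ± 0.81 (SD, n = 5) and Sahiwal -0.83 ± 0.46 (SD, n = 6), a difference of -1.01 (SE 0.38, limma adjusted p = 0.0434). The call ended without any of Ladakhi animals 1, 2, 4 and 5 or Sahiwal animals 1, 2, 3 and 6, at 0.0623 to 0.112. With the mean of its 3 probes it turned, to 1.17 (adjusted p = 0.00376), and 2 of those probes were not above background on any Ladakhi array. The dimmest was not above background on any Sahiwal array either, with means of -9.86 in Sahiwal and -5.81 in Ladakhi. 

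The other 4 measured members did not pass the test. IRF9 differed by -0.74 (SE 0.34, limma adjusted p = 0.0925), with Ladakhi levels from -2.53 to -1.32, and its sign turned when its probes were averaged. IRF7 differed by 0.76 (SE 0.32, adjusted p = 0.0708), with Ladakhi levels between -1.65 and -0.78 and Sahiwal levels between -2.84 and -1.30. It passed the threshold, as higher, in 9 of 26 alternatives. Without Sahiwal animals 4 and 6, the highest Sahiwal readings of IRF7, its difference was 1.097 (adjusted p = 0.0190). A second IRF7 probe sharing 54 of its 60 bases gave -0.23 (SE 0.44, adjusted p = 0.70), so the direction for IRF7 is not settled. IFI35 differed by 0.28 (SE 0.34, adjusted p = 0.527) and XAF1 by 0.27 (SE 0.36, adjusted p = 0.558).

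**Figure D4:**
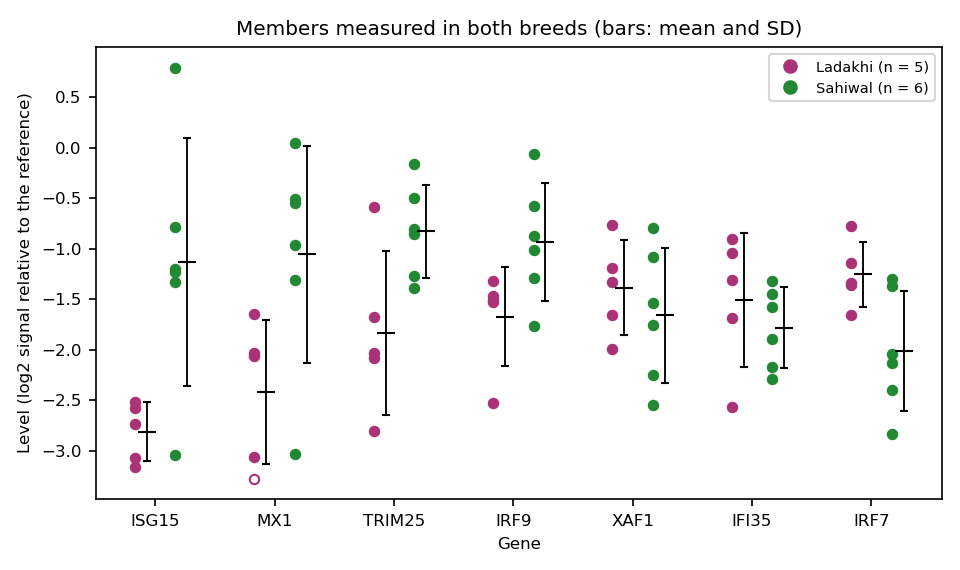
Levels (log2 relative to the array's reference) of the 7 members measured in both breeds, 1 point per animal, open where not well above background, with mean and SD bars. ISG15, MX1 and TRIM25 were lower in Ladakhi by 1.68, 1.36 and 1.01 with overlapping points, and the other 4 did not pass the test.

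Marker lists of cell types lay at these levels in the same breeds. The summed monocyte markers were 2.51 to 3.93 in Sahiwal and 1.07 to 2.55 in Ladakhi, the granulocyte markers 2.07 to 4.26 and 0.999 to 2.44, and the 17 early response genes, which cells switch on quickly when stimulated, 2.68 to 5.01 and 2.18 to 3.00. The cytotoxic and NK markers ran the other way, at -1.10 to 1.13 and 1.30 to 2.14. The sum of the 5 plasmacytoid dendritic cell markers was 0.25 to 1.104 in Sahiwal and -0.61 to 0.07 in Ladakhi, without overlap. Only 2 or 3 of these 5 were well above background on each Ladakhi array. By single gene, TCF4 and IRF8, well above background on every array, overlapped between the breeds. LILRA4 read -2.13 to -0.80 in Sahiwal and was well above background on 1 Ladakhi array. The T cell, B cell, red cell and platelet lists overlapped between the breeds. The part of these marker lists in the breed differences was not tested.

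Outside the 7, little can be read. STAT2 was well above background on all Sahiwal arrays and on no Ladakhi array, and was at least 1.06-fold higher in Sahiwal, the Sahiwal mean set against the Ladakhi detection limit. It passed the filter through Sahiwal alone, so its call compares signal with background values and adds nothing to that bound, which lies close to 1. OAS1Y, on 3 Ladakhi arrays at -2.13, -3.18 and -2.07, differed by -1.37 (SE 0.59, adjusted p = 0.0751). The remaining members on 1 to 3 Ladakhi arrays were ISG20, IFI6, USP18, HERC5, BST2, PARP9, PARP14 and UBA7, so that 9 members were seen there on some arrays only. For the other 21 members on no Ladakhi array, the Ladakhi values are those of background and no direction was read from them.

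Of the other genes of the pathway, a list of 78 with a probe, those measured in both breeds gave no common direction either. Of 35 measured, 13 were called, 6 lower and 7 higher in Ladakhi, with a median difference of -0.02. That count is close to the share over all 4034 measured probes, of which 33% were called, 15.1% lower and 17.9% higher. Receptors, kinases and transcription factors held 4 of the lower calls and 1 higher call among 12 measured. The factor IRF5, on 3 Ladakhi arrays, lies outside these counts and was picked after its values were seen. It averaged 0.44 in Sahiwal and -2.94 in Ladakhi, with dim Ladakhi values raised to the detection limit. IFNAR2, a chain of the type I receptor, averaged -2.24 ± 0.72 (SD, n = 5) in the Ladakhi and -0.70 ± 0.57 (SD, n = 6) in the Sahiwal animals, a difference of -1.55 (SE 0.38, limma adjusted p = 0.00539) without overlap. IRF1, an activator of interferon responses, differed by -1.37 (SE 0.34, adjusted p = 0.00641), with Ladakhi levels of -1.19 to -0.47. IRF2, which opposes IRF1, was higher by 2.27 (SE 0.45, adjusted p = 0.00153), with overlapping animals. Cyclic loess, which moves the median of all measured probes from -0.03 to 0.42, left 0 of the lower calls and 12 higher ones, and quantile normalization 3 and 12. Under cyclic loess the adjusted p was 0.0603 for IFNAR2 and 0.0735 for IRF1.

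Among the measured sensors and induced genes the strongest differences were higher in Ladakhi, in contrast to ISG15 and MX1. The induced genes IFITM3 and EPSTI1 were called lower, at -1.67 (SE 0.54, limma adjusted p = 0.0238) and -1.34 (SE 0.40, adjusted p = 0.0149). The DNA sensor IFI16 read -0.66, -0.68, -1.39, -0.90 and -0.59 in Ladakhi and -5.34 to -3.40 in Sahiwal, a difference of 3.23 (SE 0.36, limma adjusted p = 5.0e-05). WARS, a tryptophan-tRNA ligase induced by interferon gamma, was higher by 1.89 (SE 0.25, adjusted p = 0.000142), PML, the core of PML nuclear bodies, by 1.91 (SE 0.28, adjusted p = 0.000256), LY6E by 1.81 (SE 0.31, adjusted p = 0.000660) and RTP4 by 2.12 (SE 0.40, adjusted p = 0.00120). IFI16, WARS, PML, LY6E and RTP4 separated the breeds without overlap, as 21.5% of all measured probes did. They were picked by small p, so their separation follows in part from that choice. Of the ligands, IFNAC was not above background on any array and IFNG was on 4 Sahiwal arrays and on no Ladakhi array.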

How the data were processed

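RNA of PBMC from 11 animals, 1 array each, was measured on 1-colour Agilent bovine arrays. The deposited intensity columns hold, per the file headers, Feature Extraction processed signals (background-subtracted Cy3 brightness, with a surrogate where a spot is not above background), from version 12.0.1.1 for Ladakhi and 9.5.3.1 for Sahiwal, and the deposited marks say whether a spot is well above background, saturated or an outlier. A value table that the authors deposited is in log2. No column matched the array it is named after, each fitting another animal of its breed (correlation 0.966 to 0.991, against 0.00919 to 0.661 with the named one), with slopes near 1, so it served only the breed comparison. Its scaling is not stated, its column medians were 1.60 to 2.31 in Ladakhi and -0.73 to 0.00 in Sahiwal, and animal numbers, here those of the scanner files, are unsettled.

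Control spots were left out, 294 outlier spots set missing and spots of a probe averaged. Log2 signals were scaled as the report states. A gene was its brightest probe by the mean over 11 arrays. limma 3.58.1 in R 4.3.3 (lmFit, eBayes, two-sided) was checked on simulated data. Each animal is 1 sample, and the number of arrays limits the precision. Members and lists were chosen with earlier results of these data known. In full were named the measured members, the 10 with the widest Sahiwal range and up to 8 called pathway genes by smallest p; others were named after their values were seen. Alternatives covered scaling, background (normexp, offset 50), filter, saturation, slide, replicate block, value table, probe choice and each array left out. Leaving out Sahiwal animals 4 and 6 together, counting genes highest in that pair, counting any probe and centring on other genes were added after seeing the data. Gene names are those of the array's design.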

Additional observations from a re-analysis of the deposited data

Results flagged for a closer look

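In 6 of 65 groups of arrays checked, 1 array lay far from the rest of its breed, and chance alone marks about 1 group in 20. Among members, IRF9 was lowest in Ladakhi animal 2, at -2.53, IFI27 in Sahiwal animal 6, at -7.55, and RSAD2 in Sahiwal animal 2, at -8.03, the last 2 not well above background. Among other pathway genes, IFNAR2 was lowest in Ladakhi animal 1, at -3.53, TYK2 was lowest in Ladakhi animal 2, at -5.26 and not well above background, and EPSTI1 was highest in Ladakhi animal 5, at -0.64.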

How the results depend on the processing

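The count of 3 measured members called, all lower in Ladakhi, became 1 with quantile normalization (IRF7, higher), 1 with cyclic loess (IRF7, higher), 1 with the filter of 4 arrays of both breeds, 5 with dim signals raised (4 lower, 1 higher), 5 with the slide as a random block (correlation -0.11; 4 lower, 1 higher), 1 without Sahiwal animals 4 and 6 (IRF7, higher), and 1 to 3 with an array left out. Quantile normalization, cyclic loess and normexp moved the median of all measured probes to 0.17, 0.42 and 0.25 and the members' median to -0.48, -0.28 and -0.51. The split of called probes, 609 lower and 722 higher, became 343 and 1040, 186 and 1163, and 612 and 1413, the last a total of 2025 against 1331. When the probes of each gene were averaged MX1 turned to 0.28 and TRIM25 to 1.17, and probes at background in 1 or both breeds enter these means. The Ladakhi difference between animals of 0.25 was 0.69 on the all-probe scale, 0.54 with the mean of probes, 0.38 as a mean over members and 0.16 to 0.47 with an array left out. Detection in Ladakhi was 16 members on any array. Animal numbers do not pair animals of different breeds (correlations of same-numbered deviations -0.05 to 0.02). The replicate block over animals 1 to 5 called 2 members and 1000 probes. The Sahiwal difference between animals stayed between 1.04 and 1.83 in the alternatives run. Of 94 alternatives to the main counts and differences, 80 stayed within the limits used and 14 moved. Dim Ladakhi signal limits what can be said of 31 members, and the cause of these shifts was not tested.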

Other observations

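The pattern of Sahiwal animals 4 and 6 extended to other genes of the pathway. Of 57 such genes well above background on all 6 Sahiwal arrays, 20 (35.1%) had their highest pair of levels in these animals, against 12.2% of genes outside the member list. The following were named after their values were seen. IFNGR1, the ligand-binding chain of the interferon gamma receptor, read -5.11, -6.68, -6.50, -2.51, -3.56 and -1.82 in animals 1 to 6. UBE2L6, the enzyme that carries ISG15 to its ligase, read -2.20, -2.17, -2.12, 0.50, -1.88 and 0.28. IFITM3, which blocks viral entry, read 0.94, 1.02, 0.89, 2.85, 1.20 and 2.77. CCL8, a monocyte chemokine, went another way, at -5.04, -2.94, -2.81, -6.11, -7.21 and -3.10. The granulocyte markers given in the report, apart from LTF, moved with the same animals, and their part was not tested.

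Some probes carry IFI44L in their description without that gene name. The brightest read -4.39, -5.96, -6.01, -4.77, -3.31 and -3.88 in Sahiwal animals 1 to 6 and was not above background in Ladakhi. Animal 5 was highest, as for PARP9, PARP14 and CXCL10.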
